A study of Mus musculus with 12 samples.

Results

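Oxidative phosphorylation is carried out by 5 protein complexes of the inner mitochondrial membrane, and the genes described here encode their nuclear subunits. They were taken by gene symbol: symbols that begin with Ndufa, Ndufb, Ndufc, Ndufs or Ndufv (assembly factors named Ndufaf left out), Uqcr, Cox4 to Cox8 or Atp5, with Sdha, Sdhb, Sdhc, Sdhd and Cyc1. This gave 83 genes, of the 19938 genes that a probe set names alone, and 81 of them were among the 12980 genes that passed a filter on low signal. By complex, 34 were in complex I, 4 in complex II, 9 in complex III, 19 in complex IV and 17 in complex V. Cox7a1 and Cox7b2, with mean log2 signals of 5.43 and 4.29, were below the filter level of 5.84.

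RNA came from spleen cells of 3-month-old mice, sorted by flow cytometry as Ter119-positive with high CD71, a surface phenotype of erythroblasts, and was hybridised to 12 Affymetrix arrays. The 4 groups of 3 arrays were labelled DKO (knockout of both Rb and E2f8), E2f8 KO, Rb KO and WT (wild type), and the labels call the arrays of a group biological replicates. Rb is the retinoblastoma protein, which holds back E2F transcription factors, and E2f8 is an E2F family member that represses transcription. The sources used here do not give the promoter that drove any deletion, the strain, or whether animals were pooled. A value below is a log2 signal or a difference of 2 mean log2 signals, and a gene is said to have risen or fallen where limma's adjusted p was under 0.05 over all 12980 genes.

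Complex I (NADH dehydrogenase) and complex II (succinate dehydrogenase) pass electrons to ubiquinone, complex III (the cytochrome bc1 complex) passes them on to cytochrome c, and complex IV (cytochrome c oxidase) reduces oxygen. Complexes I, III and IV pump protons, and complex V (ATP synthase) lets them back through a rotor to make ATP. Erythroblasts need active mitochondria for haem synthesis, and they clear their mitochondria by mitophagy as they mature to red cells.

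The genes named in the labels were checked first, and their signals went in part against the labels. Rb1 was lower than in WT in both groups labelled as lacking it, by -0.70 in DKO (adjusted p = 0.000483) and by -0.41 in Rb KO, which was not called (adjusted p = 0.394). Rb1 averaged 12.12 ± 0.13 in DKO, 11.71 ± 0.03 in E2f8 KO, 12.42 ± 0.11 in Rb KO and 12.82 ± 0.17 in WT (SD, n = 3 each), so its lowest signal was in arrays labelled E2f8 KO. Its difference there against WT was -1.11 (adjusted p = 0.000154), larger than in DKO or Rb KO. E2f8 averaged 13.13 ± 0.04 in DKO, 12.81 ± 0.07 in E2f8 KO, 12.19 ± 0.45 in Rb KO and 11.95 ± 0.29 in WT, and was higher in both groups labelled as lacking it. Against WT, E2f8 rose by 1.18 in DKO (adjusted p = 0.000478) and by 0.86 in E2f8 KO (adjusted p = 0.00728). The sources used here do not say whether these probe sets lie in deleted sequence, and every group name below means the label of the arrays.

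Some arrays stood apart. The mean log2 signal of the 81 genes was 9.78, 9.86 and 9.79 in DKO arrays, 9.72, 9.74 and 9.87 in E2f8 KO arrays, 10.12, 9.69 and 9.68 in Rb KO arrays and 9.94, 9.76 and 9.81 in WT arrays. Replicate 1 of Rb KO was therefore the highest of the 12, and 68 of the 81 genes had their highest Rb KO value in it. The genes lay above the mean of the other two Rb KO arrays by a median of 0.46, against 0.03 over all genes tested. B cell markers lay below that mean by a median difference of -2.18 in the same array, and erythroid markers lay above it by 0.61. Xist was at 3.99 and 5.22 in replicate 3 of DKO and of E2f8 KO and between 11.30 and 12.18 in the other arrays, and Cox7b, Ndufa1 and Ndufb11 are on the X chromosome.

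Markers of other cells also differed between groups. The mean of 15 B cell markers was 6.97 in DKO, 8.27 in E2f8 KO, 11.49 in Rb KO and 11.31 in WT arrays, and all 15 fell in DKO and in E2f8 KO against WT. The mean of 14 macrophage markers was 7.73 in DKO, 8.63 in E2f8 KO, 8.95 in Rb KO and 9.87 in WT arrays, and that of 9 T cell markers was 6.12, 6.53, 7.79 and 7.93 in the same groups. The mean of 14 granulocyte markers was 8.47 in DKO (6.89, 8.11 and 10.42 in its arrays), 8.51 in E2f8 KO, 6.89 in Rb KO and 6.36 in WT arrays. The mean of 10 erythroid markers was 12.95 in DKO, 13.01 in E2f8 KO, 12.56 in Rb KO and 12.75 in WT arrays. These markers did not move alike. Against WT, Alas2 fell in DKO (-0.45, adjusted p = 0.000418) and in E2f8 KO (-0.27, adjusted p = 0.0161). Epor rose in both (0.66, adjusted p = 0.0276, and 0.86, adjusted p = 0.0126), and Rhd rose in DKO (0.49, adjusted p = 0.0392). The others were called in neither comparison. Of the 2 proteins used for the sort, CD71 is encoded by Tfrc, which was at 12.87, 12.77 and 12.95 in DKO arrays, 13.09, 12.95 and 12.84 in E2f8 KO arrays, 12.83, 12.27 and 11.73 in Rb KO arrays and 12.78, 12.37 and 12.50 in WT arrays. The part of other cell types in the differences below was not tested, and in such bulk samples fewer cells of a type and less RNA per cell cannot be told apart.

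**Figure D1:**
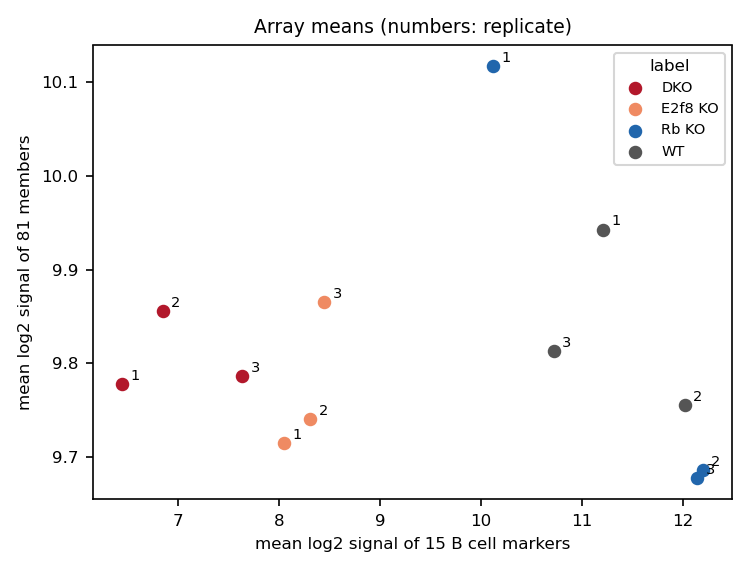
Mean log2 signal of the 81 subunit genes (vertical axis) against the mean log2 signal of 15 B cell markers (horizontal axis), 1 point per array, coloured by genotype label and numbered by replicate. Replicate 1 of Rb KO is the highest point at 10.12, while DKO and E2f8 KO arrays lie to the left with lower B cell marker signal and subunit means between 9.72 and 9.87.

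Over the 5 complexes together, the group means lay closer to each other than the arrays of Rb KO or WT did: the mean log2 signal of the 81 genes was 9.81 ± 0.04 in DKO, 9.77 ± 0.08 in E2f8 KO, 9.83 ± 0.25 in Rb KO and 9.84 ± 0.10 in WT (SD, n = 3 each). The median difference over the 81 genes was -0.03 for DKO against WT, 0.01 for E2f8 KO against WT, 0.00 for Rb KO against WT and -0.01 for DKO against Rb KO, where the medians over all genes tested were 0.00, 0.06, 0.04 and -0.01. Single genes differed: 15 of the 81 rose or fell in at least 1 of the 6 comparisons and 66 did not pass in any. All genes were not counted over the 6 comparisons together, so this split has no background beside it. The shares of all genes below are per comparison. In DKO against WT, 3 genes rose and 8 fell, 13.6% of the 81, while 38.2% of all genes tested were called (20.6% higher and 17.6% lower). In E2f8 KO against WT none rose and 10 fell, 12.3% of the 81, while 26.1% of all genes were called (11.9% higher and 14.2% lower). In DKO against Rb KO, 1 rose and 6 fell, 8.64% of the 81, while 37.1% of all genes were called (19.5% higher and 17.6% lower). Each of these shares lay below that of all genes, which no longer held in the comparisons with WT under the B cell covariate below. In Rb KO against WT no subunit gene was called with limma, 2 had an unadjusted p under 0.05 and 0.0077% of all genes were called. In DKO against E2f8 KO none was called, 4 had an unadjusted p under 0.05 and 2.37% of all genes were called (1.73% higher and 0.647% lower). For the interaction of both labels, DKO minus Rb KO minus E2f8 KO plus WT, none was called, 1 had an unadjusted p under 0.05 and 0.077% of all genes were called (0.0539% higher and 0.0231% lower). DKO and E2f8 KO are each set against the same WT arrays, and all comparisons of DKO use the same DKO arrays.

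A gene that was not called is not shown to be unaltered. In DKO against WT the 95% interval of the difference lay within 1.5-fold in both directions for 38 of the 81 genes, and for 4510 of the 12980 genes tested. The counts depended on single arrays. Without replicate 1 of Rb KO, 17 genes were called in DKO against WT (8 higher, 9 lower) and 20 in DKO against Rb KO (14 higher, 6 lower), 21% and 24.7% of the 81, while 43.3% and 44.6% of all genes were called. Without WT replicate 2, DKO replicate 3 or WT replicate 3, DKO against WT had 5, 5 and 6 calls, while 28.1%, 32.2% and 34.5% of all genes were called. Without DKO replicate 1 or 2 it had 7, while 34.3% and 31.6% of all genes were called. E2f8 KO against WT had 2 calls without E2f8 KO replicate 1, E2f8 KO replicate 2 or WT replicate 2, while 14.5%, 15.7% and 11.8% of all genes were called, and 3 without E2f8 KO replicate 3, where 16.9% were. DKO against Rb KO had 4 without Rb KO replicate 3, while 26.4% of all genes were called. With both arrays of low Xist left out, each of these 3 comparisons had 3 calls, while 28.8%, 16.1% and 27.2% of all genes were called in DKO against WT, E2f8 KO against WT and DKO against Rb KO. With the B cell mean of each array as a covariate the calls were 7 in DKO against WT, 3 in E2f8 KO against WT and 3 in DKO against Rb KO, all lower. These were 8.64%, 3.7% and 3.7% of the 81, while 7.92%, 2.04% and 4.73% of all genes were called. In both comparisons with WT the members' share was thus no longer below that of all genes. These shares rest on few calls, and their difference was not tested. With Rb KO replicate 1 also left out limma called none in any comparison, and 0.539%, 0.193% and 0.0462% of all genes in the same 3. The B cell mean itself differed between the labels, as given above, so fits with this covariate cannot separate it from the labels.

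**Figure D2:**
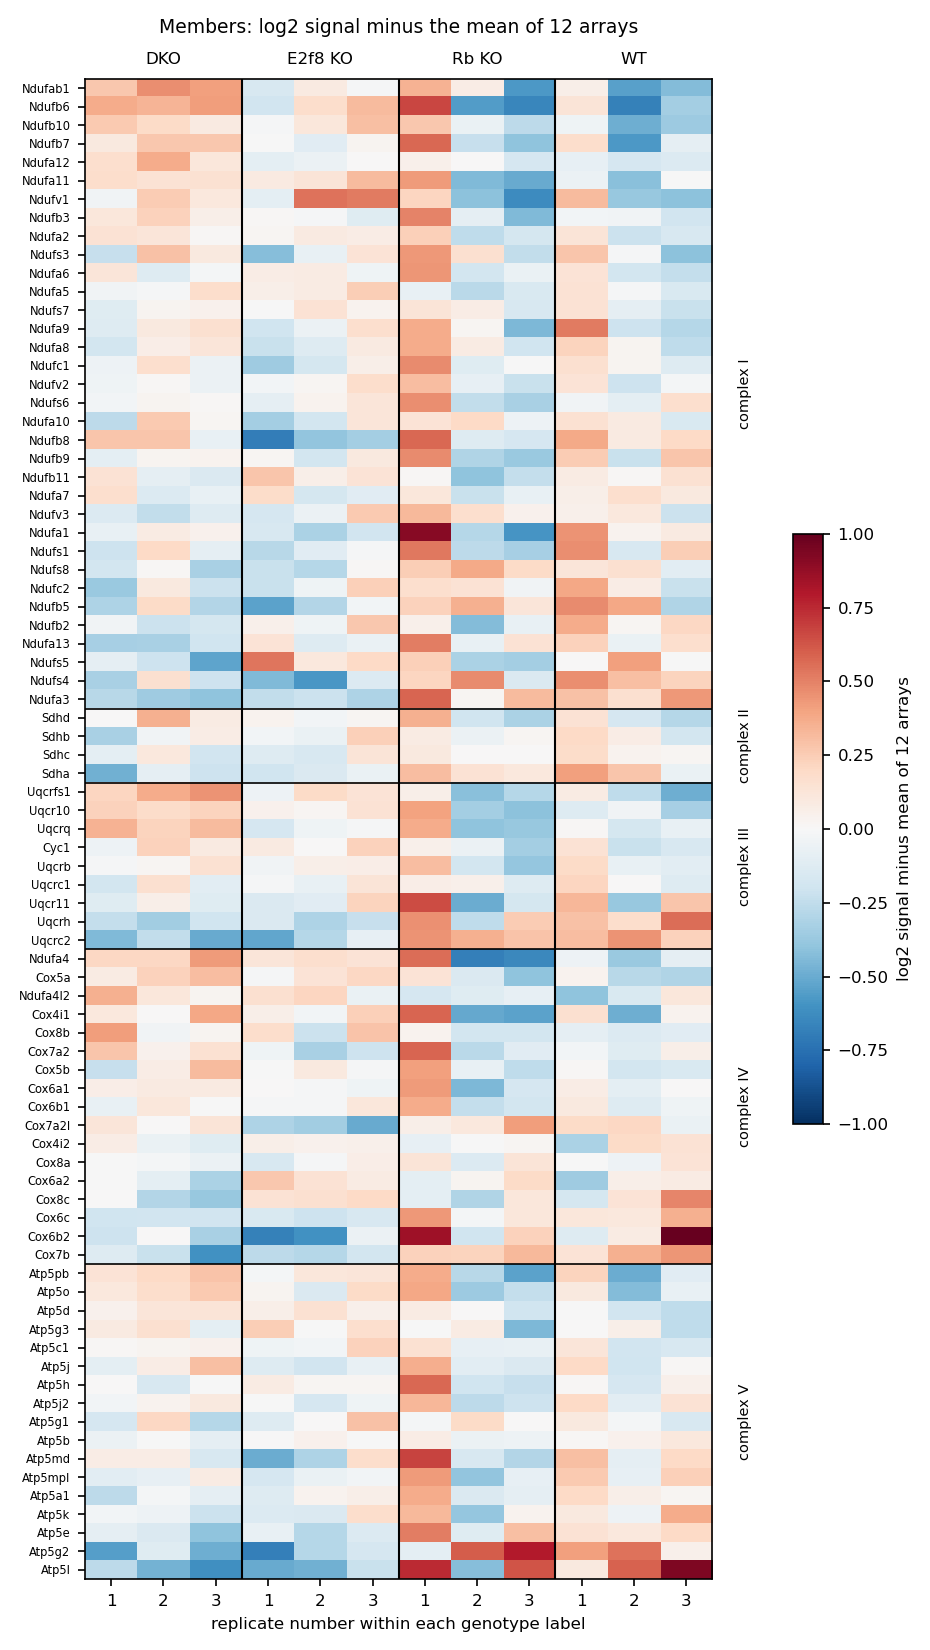
Log2 signal of each of the 81 subunit genes minus its mean over 12 arrays (colour), with 1 column per array and 1 row per gene, ordered within each complex by the difference between DKO and WT. The rows at the bottom of complexes I, III, IV and V (Ndufa3, Uqcrc2, Cox7b, Atp5l) are lower in DKO and E2f8 KO, and the first Rb KO column is the highest of its group in 68 of 81 rows.

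In complex I, Ndufa3 fell, Ndufab1 and Ndufb10 rose, and the other 31 genes were not called in DKO against WT. The median difference of its 34 genes was -0.01 in that comparison. Ndufa3, a supernumerary subunit of the membrane arm, was at 9.78, 9.70 and 9.65 in DKO arrays, 9.81, 9.84 and 9.74 in E2f8 KO arrays, 10.64, 10.07 and 10.37 in Rb KO arrays and 10.34, 10.22 and 10.49 in WT arrays. All DKO and E2f8 KO arrays lay below all Rb KO and WT arrays. Its difference was -0.64 in DKO against WT (SE 0.16, adjusted p = 0.00738), -0.55 in E2f8 KO against WT (adjusted p = 0.025) and -0.65 in DKO against Rb KO (adjusted p = 0.0072). Both DKO calls held in each of the 12 fits that left out 1 array, while the call in E2f8 KO was lost in 5 of them, with adjusted p between 0.0505 and 0.0816. No Ndufa3 call held with the B cell mean as a covariate and Rb KO replicate 1 left out.

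Ndufab1 and Ndufb10 went the other way. Ndufab1 is the mitochondrial acyl carrier protein, which also serves fatty acid and lipoic acid synthesis. It was at 9.15, 9.34 and 9.29 in DKO arrays, 8.72, 8.97 and 8.87 in E2f8 KO arrays, 9.23, 8.96 and 8.31 in Rb KO arrays and 8.94, 8.34 and 8.44 in WT arrays. Every DKO array lay above every WT array, and the difference was 0.69 (SE 0.23, adjusted p = 0.0328). The Rb KO arrays ran between 8.31, below every WT array, and 9.23, among the DKO arrays. Ndufb10, a supernumerary subunit of the membrane arm, was at 7.51, 7.44 and 7.33 in DKO arrays, 7.23, 7.36 and 7.55 in E2f8 KO arrays, 7.52, 7.18 and 6.98 in Rb KO arrays and 7.20, 6.75 and 6.88 in WT arrays. Its difference was 0.48 (SE 0.17, adjusted p = 0.0449). The Ndufb10 call was lost in 9 of the 12 fits that left out 1 array (adjusted p up to 0.175) and that of Ndufab1 in 5 (up to 0.128).

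Ndufs4 and Ndufb8 fell in E2f8 KO against WT. Ndufs4 is a supernumerary subunit whose loss causes Leigh syndrome in humans. It was at 9.51, 9.99 and 9.62 in DKO arrays, 9.39, 9.24 and 9.69 in E2f8 KO arrays, 10.04, 10.31 and 9.69 in Rb KO arrays and 10.29, 10.13 and 10.06 in WT arrays. Its difference was -0.72 in E2f8 KO against WT (SE 0.20, adjusted p = 0.0193), and -0.45 in DKO against WT, which was not called (adjusted p = 0.0902). Ndufb8 was at 9.99, 9.99 and 9.64 in DKO arrays, 9.02, 9.32 and 9.37 in E2f8 KO arrays, 10.28, 9.58 and 9.55 in Rb KO arrays and 10.09, 9.80 and 9.91 in WT arrays. The E2f8 KO arrays lay below all others, and the difference was -0.70 in E2f8 KO against WT (adjusted p = 0.0285) and -0.06 in DKO against WT (adjusted p = 0.859). Ndufb8 differed by 0.64 in DKO against E2f8 KO (adjusted p = 0.139) and by 0.76 in the interaction (adjusted p = 0.836), so neither difference passed. Leaving out 1 array ended the E2f8 KO call of Ndufb8 in 6 of 12 fits (adjusted p up to 0.119) and that of Ndufs4 in 4 (up to 0.0839).

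The 6 measured core subunits of the complex I peripheral arm, which hold the flavin and iron-sulfur clusters, were not called in either comparison with WT. Their differences ran between -0.23 and 0.27 in DKO and between -0.32 and 0.48 in E2f8 KO. Ndufs8, one of them, fell in DKO against Rb KO. It was at 10.01, 10.21 and 9.86 in DKO arrays, 9.97, 9.91 and 10.20 in E2f8 KO arrays, 10.44, 10.57 and 10.39 in Rb KO arrays and 10.31, 10.36 and 10.09 in WT arrays. The difference was -0.44 (SE 0.15, adjusted p = 0.0382), and leaving out 1 array ended the call in 6 of 12 fits (adjusted p up to 0.15). Ndufc1 had the smallest difference of complex I in DKO against WT, with 9.24, 9.46 and 9.23 in DKO arrays and 9.45, 9.32 and 9.17 in WT (difference 0.00, 95% interval -0.41 to 0.41). The smallest p-values in Rb KO against WT were those of Ndufb11, Ndufb2 and Ndufb10, at differences of -0.29, -0.35 and 0.28 (unadjusted p in limma's fit 0.0463, 0.0495 and 0.136), and none was called. Ndufs5 differed by -0.55 in DKO against E2f8 KO and was not called (adjusted p = 0.165).

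Complex II has 4 subunits, all nuclear, and 1 of the 4 genes was called. Sdha, the flavoprotein that oxidises succinate and so also works in the citric acid cycle, was at 9.65, 10.03 and 9.92 in DKO arrays, 9.92, 9.98 and 10.06 in E2f8 KO arrays, 10.43, 10.27 and 10.23 in Rb KO arrays and 10.54, 10.41 and 10.06 in WT arrays. The DKO arrays lay below every WT array, and the difference was -0.47 (SE 0.17, adjusted p = 0.0405). It was -0.44 in DKO against Rb KO (adjusted p = 0.0511) and -0.34 in E2f8 KO against WT (adjusted p = 0.144), and neither passed. The call against WT was lost in 8 of the 12 fits that left out 1 array (adjusted p up to 0.148). Sdhb, the iron-sulfur subunit, and the membrane anchors Sdhc and Sdhd differed by -0.13, -0.14 and 0.25 in DKO against WT, with adjusted p of 0.627, 0.502 and 0.365.

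In complex III, subunits moved in opposite directions in DKO. The core protein gene Uqcrc2 and the hinge protein gene Uqcrh fell, and the Rieske iron-sulfur protein gene Uqcrfs1 rose. Uqcrc2 was at 10.50, 10.70 and 10.44 in DKO arrays, 10.43, 10.66 and 10.86 in E2f8 KO arrays, 11.40, 11.30 and 11.23 in Rb KO arrays and 11.26, 11.39 and 11.18 in WT arrays. The 6 DKO and E2f8 KO arrays lay below the 6 Rb KO and WT arrays with no overlap. Its difference was -0.73 in DKO against WT (SE 0.14, adjusted p = 0.00162), -0.62 in E2f8 KO against WT (adjusted p = 0.00854) and -0.76 in DKO against Rb KO (adjusted p = 0.00149), and all 3 calls held in each of the 12 fits that left out 1 array. Over all 28 alternatives each call was lost in 2, and the difference shrank to -0.30, -0.32 and -0.20 in that order. The largest adjusted p was 0.788, 0.793 and 0.893. None of the 3 was called with the B cell mean as a covariate and Rb KO replicate 1 left out, a fit that called no subunit gene. It called 0.539%, 0.193% and 0.0462% of all genes in the same comparisons. Its partner Uqcrc1, the other core protein, was at 11.10, 11.44 and 11.18 in DKO arrays and 11.50, 11.28 and 11.15 in WT and was not called.

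Uqcrh was at 10.82, 10.71 and 10.85 in DKO arrays, 10.90, 10.74 and 10.82 in E2f8 KO arrays, 11.51, 10.79 and 11.30 in Rb KO arrays and 11.35, 11.22 and 11.61 in WT arrays. It fell in DKO against WT (difference -0.60, SE 0.18, adjusted p = 0.0157) and in E2f8 KO against WT (-0.57, adjusted p = 0.0295). Replicate 2 of Rb KO lay among the DKO values, and DKO against Rb KO was not called (-0.41, adjusted p = 0.084). Uqcrfs1 was at 8.64, 8.80 and 8.88 in DKO arrays, 8.38, 8.62 and 8.57 in E2f8 KO arrays, 8.48, 8.01 and 8.15 in Rb KO arrays and 8.51, 8.17 and 7.94 in WT arrays. The DKO arrays were above all Rb KO and WT arrays, by 0.56 against WT (SE 0.19, adjusted p = 0.0303) and by 0.56 against Rb KO (adjusted p = 0.0333). Each Uqcrfs1 call was lost in 4 of the 12 fits that left out 1 array, and those of Uqcrh in 2 for DKO and 6 for E2f8 KO. Cyc1, which encodes cytochrome c1, differed by 0.17 in DKO against WT (95% interval -0.16 to 0.50), and Uqcrb had the smallest difference of the complex at 0.05.

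Complex IV has 3 catalytic subunits encoded in mitochondrial DNA and a coat of nuclear subunits. Of the 17 tested genes, Cox7b and Cox6c fell in DKO against WT and none rose. Cox5a, the next by p-value, differed by 0.39 and was not called (adjusted p = 0.11). Cox7b was at 12.60, 12.51 and 12.13 in DKO arrays, 12.47, 12.45 and 12.55 in E2f8 KO arrays, 12.96, 12.95 and 13.06 in Rb KO arrays and 12.87, 13.09 and 13.18 in WT arrays. The DKO and E2f8 KO arrays lay below all others, and the lowest was the DKO array with low Xist. Its difference was -0.63 in DKO against WT (SE 0.12, adjusted p = 0.00154), -0.56 in E2f8 KO against WT (adjusted p = 0.00724) and -0.58 in DKO against Rb KO (adjusted p = 0.00299). These calls held in each of the 12 fits that left out 1 array. None of them held with the B cell mean as a covariate and Rb KO replicate 1 left out, a fit that called no subunit gene. It called 0.539%, 0.193% and 0.0462% of all genes in the same comparisons.

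Cox6c was at 12.89, 12.90 and 12.89 in DKO arrays, 12.94, 12.88 and 12.92 in E2f8 KO arrays, 13.52, 13.07 and 13.20 in Rb KO arrays and 13.20, 13.19 and 13.44 in WT arrays. The DKO arrays barely differed among themselves and lay below every Rb KO and WT array. The difference was -0.38 in DKO against WT (SE 0.11, adjusted p = 0.0147), -0.36 in E2f8 KO against WT (adjusted p = 0.0281) and -0.37 in DKO against Rb KO (adjusted p = 0.0184). The call against WT was lost without WT replicate 3 in DKO (adjusted p = 0.0692) and in 5 of 12 fits in E2f8 KO, and that against Rb KO held in all 12. Cox7a2l, which links complex III with complex IV in supercomplexes, was at 8.33, 8.21 and 8.34 in DKO arrays, 7.90, 7.86 and 7.70 in E2f8 KO arrays, 8.27, 8.32 and 8.63 in Rb KO arrays and 8.40, 8.41 and 8.15 in WT arrays. It fell in E2f8 KO against WT (-0.50, SE 0.16, adjusted p = 0.0355) and was at -0.03 in DKO against WT. DKO against E2f8 KO was 0.47 and not called (adjusted p = 0.145). A second Cox7a2l probe set, with a lower mean signal, had a difference of 0.21 in E2f8 KO against WT (adjusted p = 0.34), the opposite sign, and the call was lost in 5 of the 12 fits that left out 1 array.

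Several complex IV subunits have paired isoforms, one used in most tissues and one used mainly in heart and skeletal muscle, lung or testis. None of the ubiquitous forms Cox4i1, Cox6a1, Cox6b1, Cox7a2 and Cox8a was called in DKO against WT, with differences of 0.26, 0.09, 0.04, 0.19 and -0.06. Their counterparts Cox4i2, Cox6a2, Cox6b2 and Cox8b differed by -0.04, -0.07, -0.50 and 0.25, and none was called. Cox8b averaged 5.85, next to the filter level of 5.84, and Cox4i2 averaged 6.46. At such low signal a missing call says little about these isoforms. Cox6b2, the testis form, was at 10.31, 10.52 and 10.19 in DKO arrays, 9.84, 9.91 and 10.46 in E2f8 KO arrays, 11.36, 10.32 and 10.74 in Rb KO arrays and 10.39, 10.59 and 11.54 in WT arrays. Rb KO and WT each held 1 high array, and the difference in E2f8 KO against WT was -0.77 (adjusted p = 0.0829). Ndufa4, named for complex I and now placed in complex IV, differed by 0.45 in DKO against WT (adjusted p = 0.223), and its paralogue Ndufa4l2 by 0.31 (adjusted p = 0.113). Ndufa4l2 was also low, at a mean log2 signal of 6.30.

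In complex V no gene of the catalytic head was called and 2 membrane genes fell. Atp5l, which encodes subunit g, a small subunit at the dimer interface of ATP synthase, was at 9.51, 9.31 and 9.16 in DKO arrays, 9.27, 9.30 and 9.55 in E2f8 KO arrays, 10.52, 9.35 and 10.41 in Rb KO arrays and 9.87, 10.36 and 10.71 in WT arrays. Its signal fell by 49.5% in DKO against WT (difference -0.99, SE 0.29, adjusted p = 0.0163), the largest change of the 81 genes in that comparison. The difference was -0.94 in E2f8 KO against WT (adjusted p = 0.0302). The Rb KO arrays were split, with replicate 2 at the level of DKO, and DKO against Rb KO was not called (-0.76, adjusted p = 0.0541). All 6 probe sets of Atp5l fell in both comparisons with WT, by 0.83 to 1.01 in DKO and by 0.85 to 0.94 in E2f8 KO. The DKO call was lost without DKO replicate 3, WT replicate 2 or WT replicate 3 (adjusted p 0.0504 to 0.0734), and the E2f8 KO call in 5 of 12 fits.

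The c ring of the rotor is built from 1 mature protein that 3 genes encode with different import sequences, and 1 of the 3 fell. Atp5g2 was at 10.36, 10.79 and 10.43 in DKO arrays, 10.23, 10.63 and 10.75 in E2f8 KO arrays, 10.82, 11.52 and 11.71 in Rb KO arrays and 11.32, 11.45 and 10.97 in WT arrays. DKO and E2f8 KO arrays lay below all Rb KO and WT arrays, the closest being Rb KO replicate 1. Its difference was -0.72 in DKO against WT (SE 0.23, adjusted p = 0.0272), -0.71 in E2f8 KO against WT (adjusted p = 0.0396) and -0.82 in DKO against Rb KO (adjusted p = 0.0146). The other two c ring genes, Atp5g1 and Atp5g3, differed by -0.06 and 0.11 in DKO against WT (adjusted p 0.825 and 0.636). The Atp5g2 calls were lost in 4, 5 and 3 of the 12 fits that left out 1 array, in that order of comparisons. Its differences turned positive with the B cell mean as a covariate (0.72, 0.30 and 0.68 in the same order).

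With 1 probe set per gene, none of the 5 genes of the F1 head was called in any of the comparisons. Atp5b, the catalytic beta subunit, was at 13.41, 13.47 and 13.38 in DKO arrays, 13.46, 13.51 and 13.47 in E2f8 KO arrays, 13.55, 13.41 and 13.42 in Rb KO arrays and 13.48, 13.51 and 13.57 in WT arrays. The 12 arrays lay between 13.38 and 13.57, with the groups overlapping, and the difference in DKO against WT was -0.10 (95% interval -0.25 to 0.04). Atp5a1 (alpha), Atp5c1 (gamma), Atp5d (delta) and Atp5e (epsilon) differed by -0.22, 0.10, 0.25 and -0.36, with adjusted p of 0.296, 0.635, 0.0529 and 0.142. Atp5d lay at the threshold: every DKO array was above every WT array. In the limma fit over all probe sets it passed as higher in DKO against WT (adjusted p = 0.0469). Atpif1, the inhibitor of ATP synthase, which is abundant in erythroid cells, was at 13.77, 13.65 and 13.69 in DKO arrays and 13.83, 13.66 and 13.82 in WT arrays, and was not called. The 4 peripheral stalk genes were not called, and Atp5h had the smallest difference of the complex at -0.02.

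**Figure D3:**
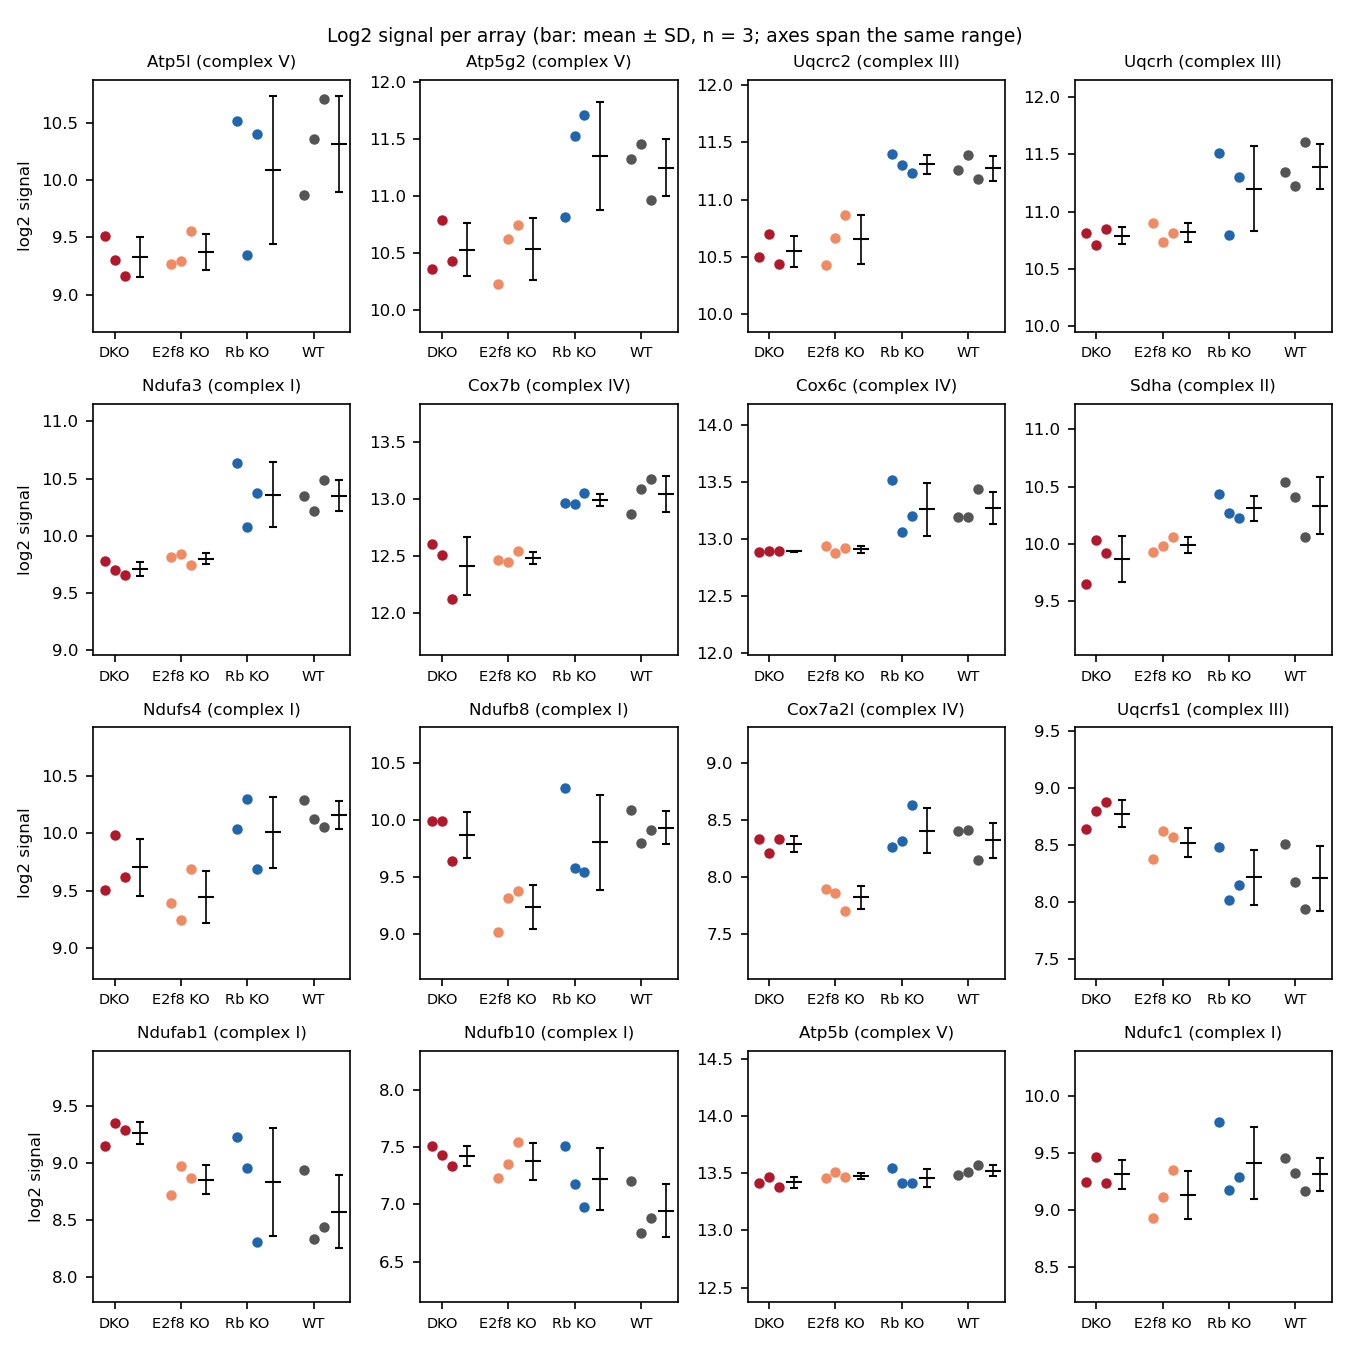
Log2 signal (vertical axes, all spanning the same range) of 16 subunit genes in each array, with groups from left to right DKO, E2f8 KO, Rb KO and WT, points for arrays, and a bar for the mean ± SD (n = 3). Uqcrc2, Cox7b and Ndufa3 are low in all DKO and E2f8 KO arrays, the E2f8 KO points of Ndufb8 and Cox7a2l lie below the others, though DKO against E2f8 KO was not called for either, Uqcrfs1 is highest in DKO, and Atp5b lies between 13.38 and 13.57 in all arrays.

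**Figure D4:**
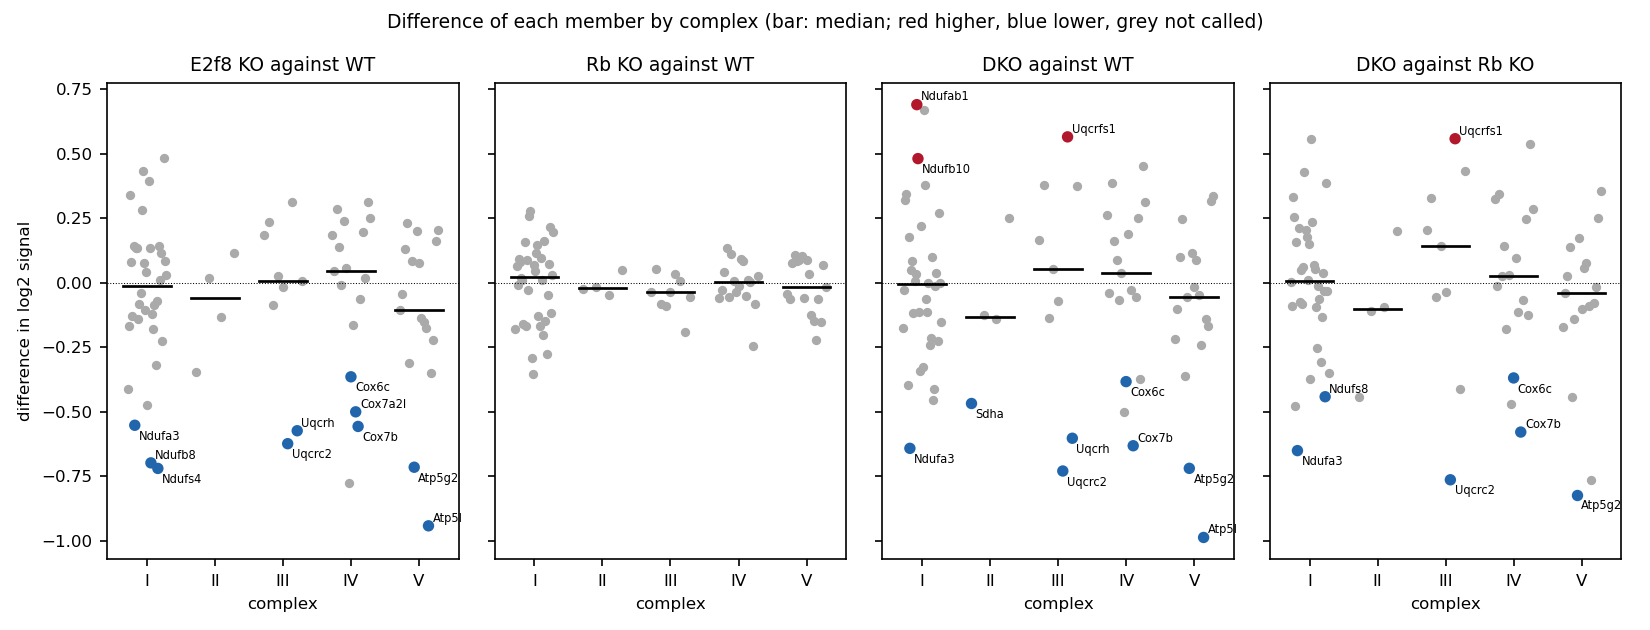
Difference in log2 signal (vertical axis) of each of the 81 subunit genes by complex (horizontal axis) in 4 comparisons, with red for genes that rose, blue for genes that fell, grey for genes not called and a bar at the median of the complex. Medians of all complexes lie between -0.13 and 0.14. Some genes that were not called lie farther out than called ones, such as Ndufb6 (0.67) against Ndufb10 (0.48) in DKO against WT.

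The effect of the E2f8 label could be measured in 2 backgrounds with no shared array, as E2f8 KO against WT and as DKO against Rb KO. Over the 81 genes these differences had a Pearson's r of 0.79 and a Spearman's rho of 0.74, where all genes tested had 0.91 and 0.83. These are correlations across genes, which are not independent replicates, and each point shares its arrays with all others of its comparison. The sign was shared by 60 of the 81 genes (74.1%), against 77% of all genes. Ndufa3, Uqcrc2, Cox6c, Cox7b and Atp5g2 fell in both, which is 50% of the 10 called in the first and 71.4% of the 7 called in the second. Over all genes the matching shares were 85.9% and 60.4%. Without Rb KO replicate 1 the second comparison had 20 calls, as given above.

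Promoter sequence was looked at because nuclear subunit genes are known targets of the transcription factor NRF1 and of the ETS-type factor GABP, made of Gabpa and Gabpb1. RefSeq windows (GRCm38.p6) of 250 bases before to 50 after each listed start were at hand for 67 of the 83 genes. The NRF1 letters, GCGC then any base then TGCGC on either strand, were in the windows of 16 of the 67 genes (23.9%), against 5.19% of all 27025 genes with a window, noncoding genes included. The ETS letters CCGGAAG, searched like all motifs on both strands, were in 17 (25.4%), against 9.93%. The YY1 motif, which can share the bases AAG with the ETS letters, was in 5 (7.46%), against 0.995%. E2F letters, TTTGGCGC or TTTCCCGC, were in 2 (2.99%), against 1.8%. Of the 8 genes that fell in DKO against WT, 6 had a window, and NRF1 letters were in 2 and ETS letters in 2. These 4 stretches are shown since they hold the matches in genes that fell, 30 bases each, on the strand of the gene, with the match in capitals. The ETS match reads CTTCCGG there, the reverse complement, and the NRF1 match of Sdha is also the reverse complement.
Atp5g2, chr15:102671070-102671099, minus strand, NRF1 match starting 42 bases before the start: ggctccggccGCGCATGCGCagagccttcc
Sdha, chr13:74350241-74350270, minus strand, NRF1 match starting 10 bases before the start: cgacacccgcgcgactcggtGCGCAAGCGC
Uqcrh, chr4:116075071-116075100, minus strand, ETS match starting 10 bases before the start: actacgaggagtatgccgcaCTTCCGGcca
Atp5l, chr9:44920936-44920965, minus strand, ETS match starting 212 bases before the start: acttcaccgatCTTCCGGaccaacatgaat
Among genes not called in that comparison, 14 of 56 had the NRF1 letters and 15 of 56 the ETS letters, and of the 3 that rose none had either. A match is only a description of the letters.

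Genes for other mitochondrial functions were counted by lists. In DKO against WT, 10 of 20 genes for the maintenance and expression of mitochondrial DNA rose and none fell, with a median difference of 0.52, where all genes had 20.6% higher and 17.6% lower. Gabpa was at 9.96, 10.14 and 10.48 in DKO arrays, 9.83, 9.84 and 9.80 in E2f8 KO arrays, 9.28, 8.89 and 8.54 in Rb KO arrays and 9.18, 8.71 and 8.61 in WT arrays. Its lowest DKO array lay above its highest WT array, and the difference was 1.36 (SE 0.22, adjusted p = 0.000468). Gabpb1 rose by 1.20, Tfb1m, a methyltransferase of mitochondrial ribosomal RNA, by 1.36, and Pprc1, a coactivator of NRF1, by 0.76. In E2f8 KO against WT, 4 of the 20 rose, with Gabpa at 0.99, Polg2 at 0.87, Gabpb1 at 0.85 and Nrf1 at 0.58. Of all genes, 11.9% were higher and 14.2% lower in that comparison.

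Of 77 genes of the mitochondrial ribosome, which translates the mitochondrially encoded subunits, 25 rose and 1 fell in DKO against WT, and 7 rose and 1 fell in E2f8 KO against WT. These were 33.8% and 10.4% of the list, while 38.2% and 26.1% of all genes were called in either direction. By direction, 20.6% of all genes were higher and 17.6% lower in DKO, and 11.9% higher and 14.2% lower in E2f8 KO. These shares of all genes also apply to the lists that follow. Mrpl40, Mrpl13, Mrps18c and Mrpl49 rose in DKO by 1.21, 1.34, 1.48 and 0.98. Of 40 assembly factors, 5 rose and none fell in DKO, led by Atpaf2, which assembles the F1 head (1.32, adjusted p = 0.000799), and 1 fell in E2f8 KO, Tmem126a, a complex I assembly factor (-0.86, adjusted p = 0.0151). Of 24 import genes and chaperones, 5 rose in DKO (20.8%, against 20.6% of all genes higher), among them Timm50 (1.12) and Timm17b (0.92) of the inner membrane translocase, and Timm50 was the 1 called in E2f8 KO (0.67). Of 13 citric acid cycle genes, Idh3a rose (0.87) and Ogdh and Idh3g fell (-0.71 and -0.38) in DKO, and none was called in E2f8 KO, where 1 had an unadjusted p under 0.05.

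Cytochrome c, the carrier between complexes III and IV, rose. Cycs was at 13.24, 13.04 and 13.06 in DKO arrays, 12.81, 12.82 and 12.97 in E2f8 KO arrays, 12.79, 12.36 and 12.29 in Rb KO arrays and 12.49, 12.06 and 12.40 in WT arrays. Every DKO and E2f8 KO array lay above every WT array, by 0.80 in DKO (SE 0.14, adjusted p = 0.00087) and by 0.55 in E2f8 KO (adjusted p = 0.0143). The ADP/ATP carriers, which export the ATP made by complex V, moved apart in DKO: Slc25a4, the heart and muscle form, fell (-1.23, adjusted p = 0.00626), and Slc25a5 rose (0.42, adjusted p = 0.0114). On that list of 19 genes for cytochrome c, ubiquinone and exchangers, 5 rose and 2 fell in DKO, and 1 rose and 2 fell in E2f8 KO. Of all genes, 20.6% were higher and 17.6% lower in DKO, and 11.9% higher and 14.2% lower in E2f8 KO.

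Of 12 mitophagy genes, 8 fell in DKO and 7 fell in E2f8 KO against WT, and none rose. These were 66.7% and 58.3% of the list, while 17.6% and 14.2% of all genes were called lower. Bnip3l, the receptor through which reticulocytes clear mitochondria, was at 13.74, 13.58 and 13.64 in DKO arrays, 13.96, 13.87 and 13.87 in E2f8 KO arrays, 14.18, 14.15 and 14.26 in Rb KO arrays and 14.08, 14.25 and 14.30 in WT arrays. No DKO or E2f8 KO array reached the lowest WT array, and the difference was -0.55 in DKO (SE 0.07, adjusted p = 0.000127) and -0.31 in E2f8 KO (adjusted p = 0.00964). Pink1, a kinase that marks damaged mitochondria, fell by 1.28 in DKO and by 1.04 in E2f8 KO, and Gabarapl2 of the autophagosome by 0.99 and 0.57. Of the mitochondrially encoded subunits, ND3 of complex I and COX2 of complex IV were measured. ND3 fell in DKO (-0.78, adjusted p = 0.012) and in E2f8 KO (-0.88, adjusted p = 0.0112) against WT, and COX2 was not called in either (-0.22 and -0.16).

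**Figure D5:**
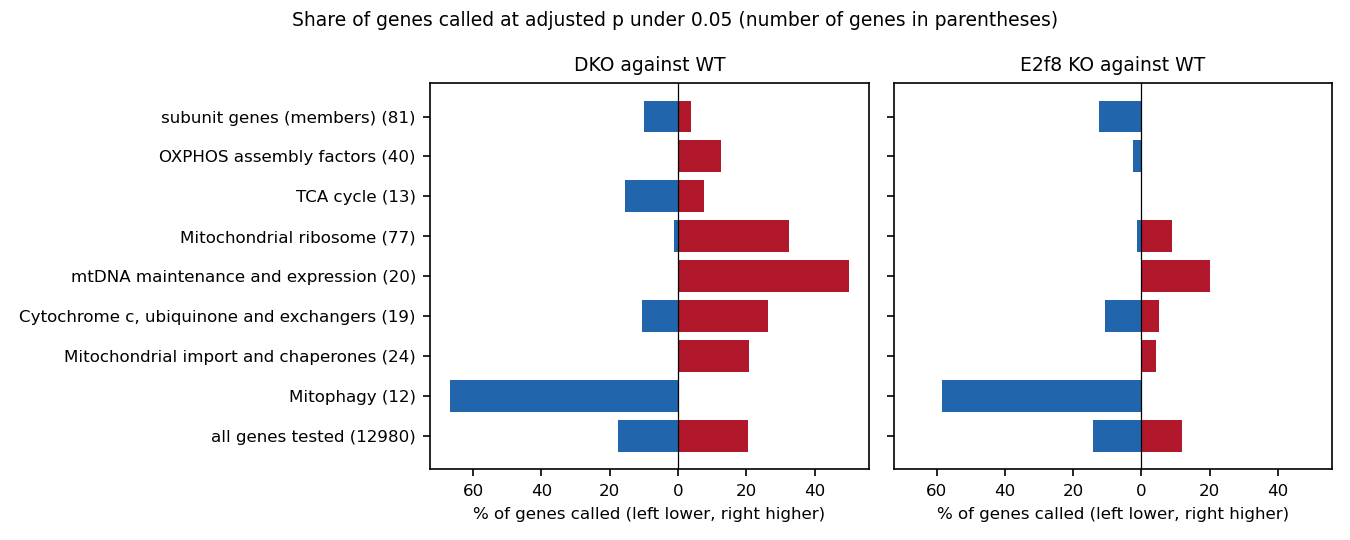
Share of genes called lower (blue, to the left) and higher (red, to the right) at an adjusted p under 0.05, in percent, for the subunit genes, 7 other mitochondrial lists and all genes tested, in DKO against WT (left panel) and E2f8 KO against WT (right panel), with the number of genes in parentheses. The subunit genes have 13.6% called in DKO against 38.2% of all genes, while 10 of 20 genes of mitochondrial DNA maintenance and expression are higher and 8 of 12 mitophagy genes lower.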

How the data were processed

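The authors deposited 1 table of log2 values per probe set and array, from 1.0678 to 14.8423, with array medians between 6.22 and 6.35. The log base was inferred from this range. MAS5 is named, with no version, per the submitters' processing notes, and the sources used here do not describe the normalization. Of 35557 probe sets, the lowest 40% by mean over 12 arrays were removed, and for each gene that a probe set names alone the one with the highest mean was kept (12980 genes). Symbols follow the platform annotation updated by gene number. Of the probe sets, 108 carried a member's symbol alone, for 83 genes, 17 of them with several, and 6 that carried it beside another symbol were left out.

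Differences were fitted with limma 3.58.1 (R 4.3.3), 1 coefficient per label, all 12 arrays (8 residual degrees of freedom), empirical Bayes with a variance trend, and Benjamini-Hochberg adjustment over all genes within each of 6 two-sided comparisons. The fit was tested on simulated data. The number of arrays limits the precision, p-values measure the spread between these arrays, and no batch is given. The members, lists, tests and the rule for naming genes were chosen with earlier results of these data known. The rule names called members with groups that do not overlap, the smallest p and smallest difference per complex, the catalytic, c ring and isoform genes, and up to 4 genes of each other list in each of 2 comparisons. Uqcrc1, Ndufb6 and the small membrane subunit genes of complex V other than Atp5l fall outside it and were chosen after their values were seen. Alternatives were other filters, normalizations, thresholds and weights, a replicate block, the B cell mean as a covariate, and each array left out. Added after the data were seen were fits without the 2 arrays of low Xist, all probe sets of a member, and the covariate without Rb KO replicate 1.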

Additional observations from a re-analysis of the deposited data

How the results depend on the processing

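Under the alternatives 724 medians of complexes moved by less than the spread between replicates and 26 by more, and 131 counts of called genes, those at 0 included, stayed within 1.5 times and 37 did not. Array weights gave 23 calls in DKO against WT (13 higher, 10 lower), 23 in E2f8 KO against WT (10 higher, 13 lower), 15 in DKO against Rb KO (9 higher, 6 lower) and 4 in DKO against E2f8 KO (2 higher, 2 lower), while 49.3%, 51.2%, 45.7% and 20.7% of all genes were called, so rises were among the calls in all 4. Quantile normalization gave 12 in DKO against Rb KO, where 38.2% of all genes were called. Fits of only the groups compared gave 4 there and 2 in DKO against E2f8 KO, while 27.6% and 9.72% of all genes were called. At an adjusted p under 0.01 the calls were 3 in DKO against WT, 2 in E2f8 KO against WT and 3 in DKO against Rb KO. Of all genes, 25.1%, 10.9% and 23.7% passed that level in the same order. Under 0.1, DKO against Rb KO had 12 calls, while 44.1% of all genes were called. With a 1.5-fold minimum the calls in DKO against WT, E2f8 KO against WT and DKO against Rb KO were 7, 5 and 3. Of all genes, 32.5%, 22.4% and 31.1% were then called. Without the 2 arrays of low Xist the calls were 3, 3 and 3, while 28.8%, 16.1% and 27.2% of all genes were called. The B cell covariate gave 7, 3 and 3, and 1 in DKO against E2f8 KO, while 7.92%, 2.04%, 4.73% and 13.1% of all genes were called. The members' shares in the first 2 (8.64% and 3.7%) were then no longer below those of all genes, on few calls.

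With that covariate the medians of complexes I, II, III, IV and V in DKO against WT were -0.59, -0.34, -0.63, -0.74 and -0.75, and in DKO against Rb KO -0.59, -0.31, -0.56, -0.51 and -0.82. In E2f8 KO against WT those of I, II, III and V were -0.44, -0.27, -0.45 and -0.59, and in the interaction those of I, III and V were -0.17, -0.11 and -0.20. Atp5g2 turned positive in DKO against WT (0.72), E2f8 KO against WT (0.30) and DKO against Rb KO (0.68), and Ndufab1 and Ndufb10 turned negative in DKO against WT (-0.11 and -0.26). The slope of this covariate comes from differences within groups. With Rb KO replicate 1 also left out no subunit gene was called (0 in each comparison). The median of complex II was then 0.40 in DKO against WT, 0.24 in E2f8 KO against WT, 0.62 in DKO against Rb KO, 0.16 in DKO against E2f8 KO and 0.38 in the interaction. In Rb KO against WT those of complexes II and III were -0.22 and -0.22. Atp5g2 was then 0.31, 0.00688 and 0.14 in DKO against WT, E2f8 KO against WT and DKO against Rb KO, and Sdha was 0.45 in DKO against WT. The causes of these shifts were not tested.

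Leaving out each array in turn gave 5 to 17 calls in DKO against WT, 2 to 13 in E2f8 KO against WT, 4 to 20 in DKO against Rb KO, 0 to 1 in DKO against E2f8 KO, and 0 in Rb KO against WT and in the interaction. Over the same fits the shares of all genes called were 28.1% to 43.3%, 11.8% to 33.8%, 26.4% to 44.6% and 0.609% to 5.49%, in that order. They were 0.0077% to 1.08% in Rb KO against WT and 0.0154% to 0.378% in the interaction. The median of complex V in DKO against Rb KO lay between -0.0733 and 0.16, and that of complex III in the interaction between -0.0515 and 0.315. A fit with the replicate number as a block gave 9 calls in DKO against WT, 9 in E2f8 KO against WT and 7 in DKO against Rb KO. Of all genes, 38%, 26.9% and 36.6% were called in that fit. Of pairs of arrays with the same number, 7 of 18 deviated together with r over 0.1, as did 13 of 36 other pairs. With r between -0.38 and 0.57 in the former, this count cannot tell whether the numbers pair the arrays. Of the results for single called genes under alternatives, 570 kept their call, 205 lost it in the same direction and 9 reversed, as given above. Signal over background could not be judged from these values.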

Other observations

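The size of the subunit genes' differences was smaller than that of all genes tested, in each of the 3 comparisons with WT. The median size, without sign, was 0.22 for the 81 genes and 0.35 for all 12980 genes in DKO against WT, 0.16 and 0.29 in E2f8 KO against WT, and 0.08 and 0.12 in Rb KO against WT.

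Of 17 subunit genes with several probe sets, 5 were called in DKO against WT, and for all 5 every probe set was called in the same direction. In E2f8 KO against WT this held for 3 of 5, and in DKO against Rb KO for 3 of 3.

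All 5 small membrane subunit genes of complex V (Atp5j2, Atp5k, Atp5l, Atp5md and Atp5mpl) were below 0 in DKO and in E2f8 KO against WT, with medians of -0.17 and -0.22, though Atp5l alone was called. Among complex I genes, Ndufb6 had the largest difference that was not called in DKO against WT (0.67, adjusted p = 0.112): it was at 9.85, 9.82 and 9.90 in DKO arrays, 9.29, 9.66 and 9.80 in E2f8 KO arrays, 10.16, 8.93 and 8.83 in Rb KO arrays and 9.62, 8.81 and 9.14 in WT. The spread of Rb KO, with replicate 1 highest, was the widest of the 4 groups.

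The mean log2 signal of the 12 mitophagy genes was 10.32 ± 0.07 in DKO, 10.44 ± 0.03 in E2f8 KO, 10.81 ± 0.09 in Rb KO and 10.93 ± 0.06 in WT (SD, n = 3 each), with no overlap between DKO or E2f8 KO and the other groups.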
